A study of Danio rerio with 6 samples.

Results

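The Hox cluster genes encode homeodomain transcription factors that lie side by side in clusters lettered A to D, and they are numbered by paralog group from 1 at one end of a cluster to 13 at the other. Members were all genes whose symbol begins with hox, a cluster letter and a number, and 48 of the 31465 genes in the tables met that rule. Of these, 17 belong to the anterior paralog groups 1 to 5 and 31 to the posterior groups 6 to 13. The measurement was RNA sequencing of hearts of the zebrafish transgenic line sqet33mi59BEt at 72 hours post fertilization (hpf), taken from pooled embryos, dissociated and separated by fluorescence-activated cell sorting (FACS) into 2 fractions. The GFP+ fraction is named the sinoatrial ring (SAR) and the GFP- fraction the rest of heart (ROH), with 3 libraries labelled as biological replicates of each. Both fractions carry the same transgene and come from the same hearts, so ROH is a sorted remainder of the same organ and not a separate genotype. The gate rests on GFP of this reporter line alone, which the study describes as a compact ring where blood enters the atrium. The comparison addresses which genes distinguish the ring, which holds the zebrafish pacemaker, from the other heart cells.

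In vertebrate embryos the position of a Hox gene in its cluster corresponds to the place along the body axis where it is expressed, with low-numbered genes active towards the head and high-numbered genes towards the tail. Retinoic acid, made by aldh1a2 and broken down by the cyp26 enzymes, is a known activator of the anterior groups. In mouse, anterior Hox genes are expressed in the posterior second heart field, the progenitors that build the inflow pole. In zebrafish, hoxb5b acts below retinoic acid to limit the number of atrial cells. Paralog groups 6 to 8 are known from the trunk, and groups 9 to 13 from the tail end, the paired appendages and the hindgut and cloaca.

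The depth of the libraries differed widely, and their make-up differed beyond the ring. Total estimated read counts ran from 999437 in ROH replicate 1 to 77243214 in SAR replicate 3, a ratio of 77.3, so that 3 counts, taken as the floor of detection, correspond to a CPM (count scaled by the library total) of 3 in the first and of 0.0388 in the second. Of the 48 Hox genes, 27 lay over that floor in ROH replicate 1, 40 in SAR replicate 1 and 47 or 48 in each of the other 4 libraries. Levels are given in TPM (a level per unit of transcript length, scaled to the same total in each library). Of all genes tested, 4.88% rose and 5.45% fell in SAR without the block. Of 11 cardiomyocyte marker genes 3 rose in SAR (8 when same-numbered libraries were blocked, beside 6.77% of all genes). Their summed level was 3910, 4250 and 1090 TPM in SAR replicates 1, 2 and 3. In ROH replicates 1, 2 and 3 it was 1350, 1400 and 777 TPM. Cardiomyocyte transcripts were thus present in every library and lowest in replicate 3 of each fraction, and the fractions overlapped. Within each replicate number the sum was higher in SAR. All 7 epicardial markers and 10 of 13 epidermal markers rose in SAR. All 10 erythrocyte markers and 8 of 10 endothelial markers fell in SAR, as did 8 of 11 tested kidney, gut and liver markers. Of 7 macrophage and neutrophil markers 5 fell, namely lyz, mpx, spi1b, ptprc and coro1a. Of the macrophage genes, mpeg1.1 fell only when same-numbered libraries were blocked, and csf1ra did not pass the test. Of 7 pacemaker markers tbx18, tbx2b and bmp4 rose, while shox2 and isl1 did not pass the test. In sorted bulk samples fewer cells of a type and less RNA per cell cannot be told apart.

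Nearly the whole Hox complement was detected in the heart fractions, at very different levels. The summed level of the 48 genes was 482, 560 and 718 TPM in SAR replicates 1, 2 and 3 and 937, 619 and 1050 TPM in ROH replicates 1, 2 and 3, and these ranges overlapped. Within each replicate number the sum was lower in SAR. The levels ran from a mean of 0.159 TPM in 1 fraction for the least abundant gene to 189 TPM for hoxc8a in ROH. A total of 25 genes stayed under 10 TPM in every library, and 19 of these belonged to groups 9 to 13. The heatmap of all members shows the abundant genes gathered in groups 3 to 8.

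**Figure D1:**
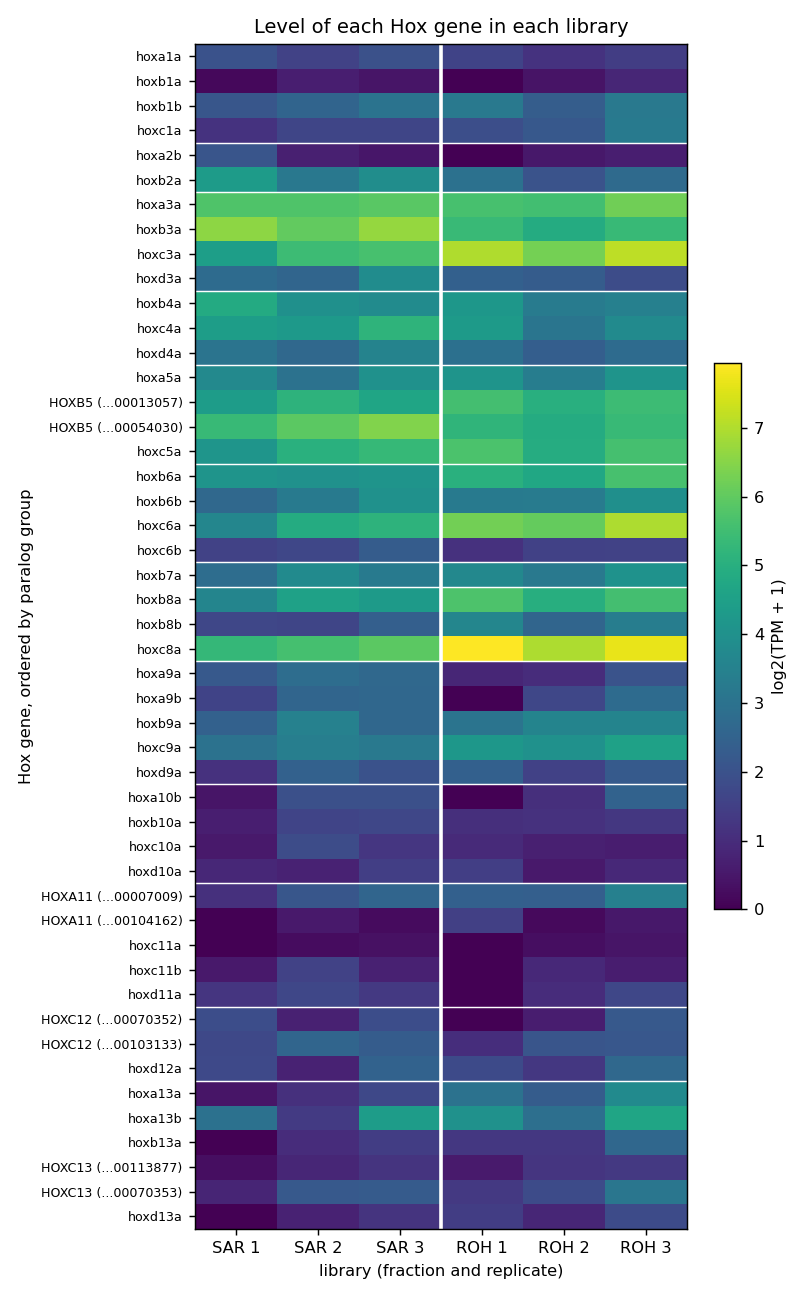
Level of each of the 48 Hox genes (rows, in order of paralog group, with white lines between groups) in each of the 6 libraries (columns), coloured by log2(TPM + 1). The brightest rows are hoxb3a in SAR and hoxc8a, hoxc3a and hoxc6a in ROH, and most rows of groups 9 to 13 are dark in all libraries.

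The most abundant Hox gene differed between the fractions. In every SAR library it was hoxb3a, and in every ROH library the leading genes were hoxc8a, hoxc3a and hoxc6a, in that order. On the TPM scale the level of hoxb3a was 2.52, 1.36 and 1.67 times that of hoxc8a in SAR replicates 1, 2 and 3. In ROH the same ratio was 0.165, 0.230 and 0.199, so the order of these genes was turned round in all 3 libraries.

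Of 45 Hox genes that passed the filter on low counts, 1 rose and 5 fell in SAR at an adjusted p below 0.05 in edgeR's quasi-likelihood test across all genes. That is 2.22% higher and 11.1% lower, against 4.88% higher and 5.45% lower among all 21969 genes tested, where 10.3% were called in either direction. The gene that rose was hoxb3a, and those that fell were hoxc3a, hoxc6a, hoxb8a, hoxc8a and hoxa13a. The labels number the libraries of each fraction alike, and the study describes pools of hearts that were each sorted into both fractions. Same-numbered libraries were therefore also compared as pairs. A rule fixed earlier took them as pairs only if every pair correlated above 0.1, and the pair of replicate 1 missed it at 0.0985. When the fit took these numbers as a block, 4 rose and 7 fell, beside 6.77% and 7.25% of all genes. The 6 genes called without the block were among them, and hoxb2a, hoxc4a, HOXB5 (ENSDARG00000054030), hoxc1a and hoxb6a were added. At an unadjusted p below 0.05 without the block, 6 were higher and 10 lower. The share of all genes at that limit was not computed, so these counts have no background to be read against. In normalized CPM the 3 SAR libraries were all higher than the 3 ROH libraries for 7 of the 45 genes (15.6%, against 14.3% of all genes) and all lower for 9 (20.0%, against 15.6% of all genes). With a further limit of 1.5 on the absolute log2 fold change, 0 rose and 4 fell, beside 2.84% and 3.7% of all genes. The median log2 fold change of the tested Hox genes was -0.23, beside 0.03 over all genes, and 19 of the 45 were positive, beside 52.3% of all genes. The Hox genes were measured less precisely than the average gene, with a median standard error (SE) of 0.48 on the log2 scale beside 0.37 over all genes.

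**Figure D2:**
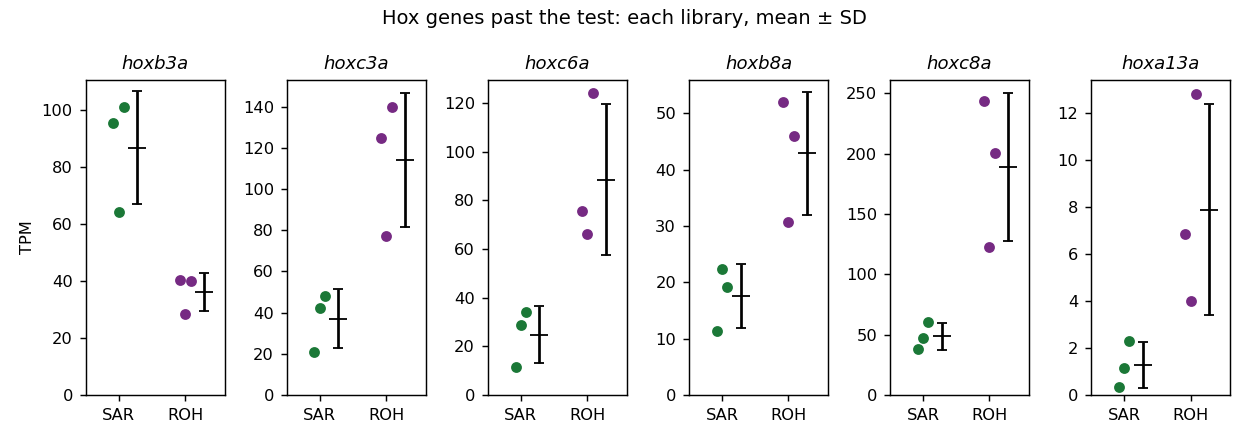
TPM in each library (green, SAR; purple, ROH; 3 points each) for the 6 Hox genes that passed the test, with the mean ± SD drawn in black beside the points and a linear axis from 0 in each panel. The SAR points lie above the ROH points for hoxb3a only, and below them for hoxc3a, hoxc6a, hoxb8a, hoxc8a and hoxa13a.

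The summed level of the anterior genes of groups 1 to 5 overlapped between the fractions. It was 350, 354 and 471 TPM in SAR and 430, 286 and 455 TPM in ROH, with means of 392 ± 68.7 and 390 ± 91.1 TPM (SD, n = 3 each). Of the 16 tested, 9 had a positive log2 fold change and 7 a negative one, with a median of 0.67 and a range from -1.65 to 1.59. Only hoxb3a was called higher and only hoxc3a lower, and the remaining 14 did not pass the test without the block.

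The posterior genes of groups 6 to 13 had a lower summed level in SAR. It was 132, 206 and 247 TPM in SAR and 507, 332 and 594 TPM in ROH, with every SAR library below every ROH library and means of 195 ± 58.2 and 478 ± 133 TPM (SD, n = 3 each), 2.45-fold higher in ROH. Without hoxc8a, the most abundant of them, the sums were 94.1, 159 and 186 TPM in SAR and 263, 209 and 393 TPM in ROH, 1.97-fold higher in ROH and still without overlap. The median log2 fold change of the 29 tested was -0.36, with 10 positive and 19 negative. The difference in sum lay mainly in groups 6 to 8, which gave 92.9, 139 and 162 TPM in SAR and 437, 270 and 460 TPM in ROH, 2.96-fold higher in ROH. The sums of groups 9 to 13 overlapped, at 39.0, 66.7 and 84.9 TPM in SAR and 70.8, 62.8 and 134 TPM in ROH.

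The balance of anterior to posterior Hox transcripts separated the fractions in every library. The anterior sum was 2.65, 1.72 and 1.91 times the posterior sum in SAR replicates 1, 2 and 3 and 0.847, 0.861 and 0.767 times in ROH replicates 1, 2 and 3. Groups 6 to 8 made up 19.3% to 24.9% of all Hox TPM in SAR and 43.6% to 46.6% in ROH. The ratio is formed within each library, so scaling between libraries does not enter it.

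**Figure D3:**
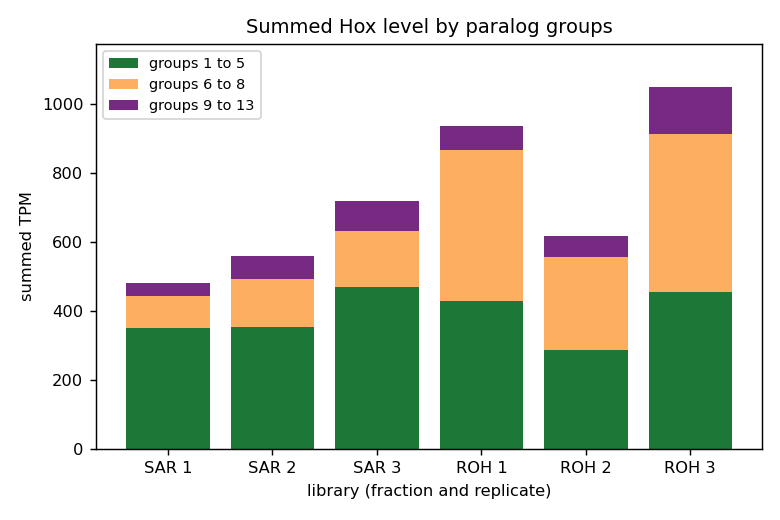
Summed TPM of the Hox genes in each library, stacked by paralog groups 1 to 5 (green), 6 to 8 (orange) and 9 to 13 (purple). The green part overlaps between the fractions, and the orange part is 92.9 to 162 TPM in the 3 SAR libraries and 270 to 460 TPM in the 3 ROH libraries.

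In paralog group 1, whose mouse members pattern the hindbrain, no gene passed the test without the block. All 4 genes stayed under 10 TPM in every library. The lowest adjusted p was that of hoxc1a, with a log2 fold change of -1.52 ± 0.41 (SE) and an edgeR adjusted p of 0.0515, and its SAR libraries (1.23, 2.15 and 2.19 TPM) all lay below its ROH libraries (2.75, 3.52 and 8.35 TPM). With the block it fell, at -1.37 ± 0.28 (SE) and an edgeR adjusted p of 0.0165. The gene hoxb1a was too sparse to be tested, with at most 0.807 TPM.

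Both measured genes of group 2, which set the identity of the second pharyngeal arch in zebrafish, had positive fold changes, and hoxb2a passed the test only with the block. The level of hoxb2a was 19.6, 8.0 and 13.8 TPM in SAR and 6.81, 3.06 and 5.66 TPM in ROH, with all 3 SAR libraries higher. Its log2 fold change was 1.52 ± 0.48 (SE) at an edgeR adjusted p of 0.0889, and with the block 1.34 ± 0.26 (SE) at 0.0126. The gene hoxa2b reached 3.24 TPM in SAR replicate 1 and at most 0.608 TPM in the other 5 libraries.

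Group 3 held the sharpest contrast within a paralog group. The level of hoxb3a, a gene of the caudal hindbrain segments that is regulated there by mafba, was 95.4, 64.1 and 101 TPM in SAR and 40.2, 28.4 and 39.9 TPM in ROH. Every SAR library was above every ROH library, and the means were 86.9 ± 20.0 and 36.2 ± 6.75 TPM (SD, n = 3 each). The fitted difference was 2.34-fold, a log2 fold change of 1.23 ± 0.26 (SE) at an edgeR adjusted p of 0.0209. The call was lost without SAR replicate 3 (adjusted p 0.0631), ROH replicate 1 (0.0864) or ROH replicate 2 (0.112), while the log2 fold change stayed between 1.08 and 1.65.

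The paralog hoxc3a, from a position in the C clusters that mammals have lost, changed in the opposite direction. It measured 21.0, 42.1 and 48.0 TPM in SAR and 125, 77.3 and 140 TPM in ROH, again without overlap. Its log2 fold change was -1.65 ± 0.37 (SE), 3.13-fold higher in ROH, at an edgeR adjusted p of 0.0268. That call was lost without SAR replicate 3 (0.0558), ROH replicate 1 (0.0861) or ROH replicate 3 (0.0777).

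The other group 3 genes did not pass the test. The level of hoxa3a, which in mouse is needed for the thymus and other derivatives of the third pharyngeal arch, was 52.8, 52.6 and 58.9 TPM in SAR and 48.7, 45.7 and 73.1 TPM in ROH. These ranges overlapped and the log2 fold change was -0.12 ± 0.23 (SE), with a sign that turned in some alternatives. The level of hoxd3a was 4.99 to 13.4 TPM in SAR and 2.63 to 4.36 TPM in ROH, with an adjusted p of 0.215 from edgeR.

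All 3 measured genes of group 4 and 1 of the 4 genes of group 5 had positive log2 fold changes, and none passed the test without the block. In group 4 the log2 fold changes were 1.18 for hoxb4a, 1.04 for hoxc4a and 0.50 for hoxd4a, and the edgeR adjusted p values ran from 0.138 to 0.488. With the block hoxc4a rose, with a log2 fold change of 1.07 ± 0.28 (SE) at an adjusted p of 0.0407. In group 5 the more abundant HOXB5 gene (ENSDARG00000054030) measured 39.9, 60.8 and 86.0 TPM in SAR and 35.6, 28.2 and 39.6 TPM in ROH. The lowest SAR value lay just above the highest ROH value, and the log2 fold change was 0.83 ± 0.27 (SE) at an edgeR adjusted p of 0.0952, and with the block 0.84 ± 0.20 (SE) at 0.0297. The second HOXB5 gene (ENSDARG00000013057) went the other way, at 19.9 to 33.8 TPM in SAR and 31.4 to 46.1 TPM in ROH with a log2 fold change of -0.63 and an adjusted p of 0.135. The tables do not say which of them is hoxb5a and which hoxb5b. The remaining members, hoxa5a and hoxc5a, had log2 fold changes of -0.23 and -0.50.

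In groups 6 to 8, the trunk groups, all 8 members were tested and 7 had negative log2 fold changes, with a median of -1.22. Of the 8, 3 fell, beside 5.45% of all genes. For 5 of the 8 every SAR library lay below every ROH library, beside 15.6% of all genes. The largest difference on the TPM scale was that of hoxc8a, whose mouse counterpart is known from the thoracic skeleton and from brachial motor neurons. It measured 37.8, 47.2 and 60.6 TPM in SAR and 244, 123 and 201 TPM in ROH, which puts the lowest ROH library well above the highest SAR library. The means were 48.5 ± 11.4 and 189 ± 61.1 TPM (SD, n = 3 each). The log2 fold change was -1.91 ± 0.27 (SE), 3.77-fold higher in ROH, at an edgeR adjusted p of 0.00466. This was the only called Hox gene that passed in each of the 11 alternative analyses of all libraries and in each of the 6 fits that left out 1 library, where its log2 fold change lay between -2.12 and -1.71.

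The group 6 gene hoxc6a, whose front limit of expression marks the level of the forelimb or pectoral fin in many vertebrates, measured 11.6, 28.8 and 33.9 TPM in SAR and 75.5, 66.1 and 124 TPM in ROH. The fractions did not overlap, and the log2 fold change was -1.84 ± 0.42 (SE), 3.58-fold higher in ROH, at an edgeR adjusted p of 0.0290. The group 8 gene hoxb8a measured 11.3, 22.3 and 19.1 TPM in SAR and 52.0, 30.7 and 45.9 TPM in ROH. It also did not overlap, with a log2 fold change of -1.30 ± 0.28 (SE), 2.46-fold higher in ROH, at an edgeR adjusted p of 0.0232. Both calls were lost without SAR replicate 3 (adjusted p 0.0567 for hoxc6a and 0.0611 for hoxb8a), ROH replicate 1 (0.0602 and 0.0801) or ROH replicate 3 (0.106 and 0.0779).

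Of the remaining members of these groups, hoxb6a had a log2 fold change of -1.15 ± 0.32 (SE) at an edgeR adjusted p of 0.0577 (-1.09 and 0.0485 with the block), and its SAR libraries (15.1 to 16.4 TPM) lay below its ROH libraries (25.5 to 48.0 TPM). The group 8 gene hoxb8b was likewise lower in each SAR library (2.19 to 4.31 TPM against 5.02 to 11.5 TPM) without passing the test (adjusted p 0.110). The fold changes of hoxb6b, hoxb7a and hoxc6b lay between -0.36 and 0.47 on the log2 scale, and their values overlapped. The signs of hoxb6b and hoxb7a turned when 1 library was left out (log2 fold changes up to 0.29 and 0.11).

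In groups 9 to 12 no gene passed the test. Of 17 members 15 were tested, and 9 of these had positive and 6 negative log2 fold changes. For 8 of the 15 the sign turned when 1 library was left out. Those fits had no block and kept the same-numbered library of the other fraction. For hoxd12a, 1 of the 8, SAR was lower in all 3 same-numbered pairs. The lowest adjusted p was that of hoxc9a, at 0.0510 in edgeR, with 7.04 to 9.46 TPM in SAR and 15 to 22.4 TPM in ROH. In contrast, hoxa9a had a log2 fold change of 1.46 ± 0.53 (SE) with 3.6 to 6.09 TPM in SAR and 0.804 to 3.11 TPM in ROH, at an adjusted p of 0.133. No gene of groups 10 to 12 passed 10 TPM in any library, and HOXA11 (ENSDARG00000104162) and hoxc11a were too sparse to be tested.

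The genes of group 13 act in the tail end, the hindgut and cloaca and, for hoxa13 and hoxd13, the distal fin. All 6 had negative log2 fold changes, from -2.62 to -0.67, and 1 of them fell, beside 5.45% of all genes. Without ROH replicate 3 the values of hoxa13b and the HOXC13 gene ENSDARG00000070353 turned positive (0.07 and 0.44), in a fit without the block that kept SAR replicate 3. The gene that fell was hoxa13a, at 0.357, 1.15 and 2.29 TPM in SAR and 6.87, 3.98 and 12.8 TPM in ROH. The fractions did not overlap, and the log2 fold change of -2.62 ± 0.67 (SE) had an edgeR adjusted p of 0.0448. It rests on 3 counts in SAR replicate 1 and 8 counts in ROH replicate 1, and of the 6 fits without 1 library only that without SAR replicate 3 kept the call, with adjusted p values from 0.0435 to 0.222.

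The more abundant paralog hoxa13b varied widely within each fraction and did not pass the test. It measured 6.79, 1.56 and 20.0 TPM in SAR and 15.3, 6.51 and 24.6 TPM in ROH, with a log2 fold change of -0.73 ± 0.84 (SE) at an adjusted p of 0.691. In each of the 3 same-numbered pairs SAR was lower, and with the block the log2 fold change was -1.14 ± 0.36 (SE) at an adjusted p of 0.0828. Both fractions were lowest in replicate 2 and highest in replicate 3. The level of hoxb13a was 0, 0.990 and 1.69 TPM in SAR and 1.46, 1.45 and 5.29 TPM in ROH, with an adjusted p of 0.339. The level of hoxd13a was 0, 0.695 and 1.28 TPM in SAR and 1.69, 0.824 and 2.5 TPM in ROH, with an adjusted p of 0.488. For both genes the fractions overlapped, although SAR was lower in each same-numbered pair. For both, 2 libraries lay at or under the floor of 3 counts. The HOXC13 gene ENSDARG00000113877 measured 0.224, 0.824 and 1.27 TPM in SAR and 0.487, 1.33 and 1.51 TPM in ROH. The second HOXC13 gene, ENSDARG00000070353, measured 0.757, 3.62 and 3.88 TPM in SAR and 1.5, 2.49 and 7.72 TPM in ROH. Both HOXC13 genes overlapped between the fractions, although ENSDARG00000113877 was lower in SAR in each same-numbered pair.

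**Figure D4:**
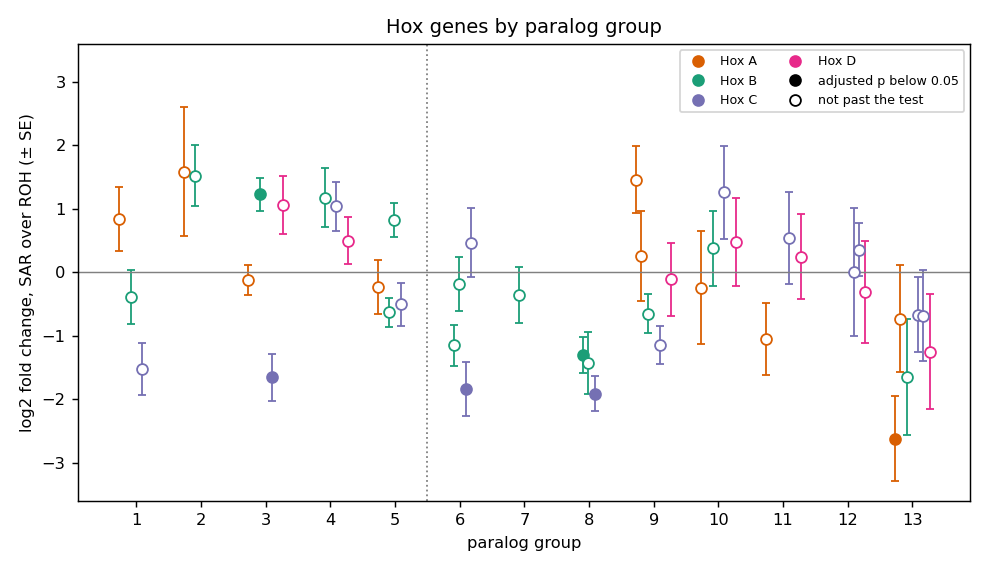
Log2 fold change of SAR over ROH for the 45 tested Hox genes by paralog group, coloured by cluster letter, with bars of ± 1 SE, filled symbols for the 6 genes past the test and a dotted line between groups 5 and 6. The 5 symbols of groups 2 and 4 lie above the zero line, the 6 of group 13 below it (hoxa13b and 1 HOXC13 gene not without ROH replicate 3), and 7 of the 8 in groups 6 to 8 below it.

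Grouped by cluster letter, the C genes carried the largest difference. Their summed level was 125, 197 and 244 TPM in SAR and 540, 333 and 575 TPM in ROH, 2.56-fold higher in ROH and without overlap. Of the 14 tested 3 fell, beside 5.45% of all genes. In the B clusters the sums overlapped as a whole but moved apart by paralog group. The B genes of groups 1 to 5 summed to 206, 187 and 246 TPM in SAR and 154, 104 and 147 TPM in ROH, with every SAR library higher. The B genes of groups 6 to 8 summed to 41.5, 61.2 and 63.3 TPM in SAR and 116, 78.2 and 133 TPM in ROH, with every SAR library lower. The A genes overlapped, at 82.5 to 119 TPM in SAR and 75.8 to 153 TPM in ROH, as did the D genes, at 18.8 to 36.2 and 13.7 to 23.2 TPM.

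The log2 fold change fell with paralog number in the A, B and D clusters and not in the C clusters. Spearman's rho across genes between paralog number and log2 fold change was -0.811 over 10 A genes, -0.644 over 14 B genes, -0.893 over 7 D genes and 0.229 over 14 C genes, and -0.315 over all 45. These are descriptions across genes that share the same 6 libraries and are not independent replicates. In the cluster hoxca the order was broken at both ends, with negative values for hoxc1a and hoxc3a, a positive value for hoxc4a (1.04), negative values from hoxc5a to hoxc9a and a positive value for hoxc10a (1.26).

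Neighbouring Hox genes can share reads. In the RefSeq annotation of a newer build (GRCz12tu) the span of hoxc3a covers hoxc4a, hoxc5a, hoxc6a, hoxc8a and hoxc9a, and the span of hoxb3a covers hoxb4a, hoxb5a and hoxb6a. The library kit does not mark strand. There hoxa3a also overlaps hoxa4a and hoxa5a, hoxb1b overlaps hoxb5b and hoxb6b, and hoxd3a overlaps hoxd4a. How the counts of overlapping transcripts were divided was not tested, so the values of all these genes are uncertain in that respect. The called genes hoxb3a, hoxc3a, hoxc6a and hoxc8a are among them.

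The DNA-binding partners of Hox proteins, the Pbx, Meis and Pknox homeodomain factors, were measured for 12 of 14 listed genes. Of these 1 rose and none fell, beside 4.88% and 5.45% of all genes, and their median log2 fold change was -0.11. The gene that rose was pbx4, the main early Pbx protein of zebrafish, at 56.7, 83.5 and 61.4 TPM in SAR and 36.2, 38.9 and 37.5 TPM in ROH. Its log2 fold change was 0.79 ± 0.16 (SE) at an edgeR adjusted p of 0.0175. With the block meis1a also rose (0.74, adjusted p 0.0461).

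Among 19 listed regulators of Hox expression, 2 rose and 1 fell, beside 4.88% and 5.45% of all genes. Those that rose were mafba (35.5 ± 6.77 TPM in SAR and 14.7 ± 2.55 TPM in ROH, SD, n = 3) and egr2a (153 ± 34.4 and 66.9 ± 13 TPM). Each had a log2 fold change of 1.2, with edgeR adjusted p values of 0.00525 and 0.0279. The paralog of egr2a, egr2b (12.1 ± 5.09 and 5.39 ± 0.557 TPM), did not pass the test with or without the block. Its log2 fold change was 1.19 at an edgeR adjusted p of 0.1 without the block. The gene that fell was hnf1ba, a regulator of the caudal hindbrain that is also active in kidney, gut and liver, at 1.07, 5.62 and 3.30 TPM in SAR and 11.5, 14.2 and 14.7 TPM in ROH, with an edgeR adjusted p of 0.0187. The cdx genes, activators of posterior Hox genes, had negative log2 fold changes that did not pass the test (-1.03 for cdx1a, -1.54 for cdx1b and -2.72 for cdx4), although cdx1b fell with the block (-1.73, adjusted p 0.0251).

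Of 25 retinoic acid pathway genes, 3 rose and 3 fell, beside 4.88% and 5.45% of all genes. The synthesis enzymes aldh1a2 (304, 323 and 448 TPM in SAR; 72.6, 60.5 and 77.6 TPM in ROH) and rdh10b (log2 fold change 2.02) rose, and so did the binding protein gene crabp1b (1.83). The breakdown enzymes cyp26a1 (-1.94) and cyp26b1 (-1.53) and the binding protein gene crabp2a (-1.94) fell. The edgeR adjusted p values of these 6 genes lay between 0.00117 and 0.0307. Other copies differed and did not pass the test with or without the block. The second RDH10 gene (ENSDARG00000058730) was more abundant, at a mean of 746 TPM in SAR and 656 TPM in ROH (log2 fold change 0.26). The other CRABP1 gene (-0.8) and the other CRABP2 gene (0.78) had signs opposite to the named copies, as did aldh1a3 (-1.23) and cyp26c1 (0.54). Of 7 tested homeobox genes that are linked to Hox clusters or related to them, such as evx2, eve1 and mnx1, pdx1 of the pancreas and gut fell (log2 fold change -2.36, adjusted p 0.0173) and the other 6 did not pass the test, of which mnx1 fell with the block (-3.49, adjusted p 0.0185).

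Markers of some other cell types were lower in SAR, as the posterior Hox sum was. In the kidney, gut and liver list 8 of 11 tested genes fell, beside 5.45% of all genes. The list summed to 139 to 911 TPM in SAR and 4000 to 6820 TPM in ROH. Each of its 12 genes was above 0 in at least 1 library of each fraction. The erythrocyte list summed to 14.1 to 27 TPM in SAR and 26400 to 43400 TPM in ROH. The endothelial list summed to 318 to 433 TPM in SAR and 649 to 1550 TPM in ROH. Within ROH the replicates were ordered differently. In ROH replicates 1, 2 and 3 the posterior Hox sum was 507, 332 and 594 TPM. The kidney, gut and liver sum was 5670, 6820 and 4000 TPM there, and the endothelial sum 1000, 1550 and 649 TPM. The erythrocyte sum was 26400, 33100 and 43400 TPM. The part of these cells in the lower posterior Hox level of SAR was not tested.

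The epicardial and epidermal lists were higher in SAR, as hoxb3a was. The epicardial list summed to 1000 to 1340 TPM in SAR and 178 to 191 TPM in ROH, and the epidermal list to 11600 to 16700 and 2530 to 3980 TPM, and their part in the hoxb3a difference was not tested. Of 10 fin mesenchyme genes fgf10a, fgf24 and hand2 rose and none fell, beside 4.88% and 5.45% of all genes. Of the 10, 6 had positive and 4 negative log2 fold changes. The values of and1 (-0.05), and2 (-0.45) and and3 (1.54) did not pass the test. The list summed to 1110 to 3150 TPM in SAR and 1300 to 2610 TPM in ROH, which overlapped. The part of fin cells in the group 13 values was not tested. Skeletal muscle (0 of 10 called) and neural crest markers (0 of 5) overlapped in summed level between the fractions. Of 9 neuronal markers gap43 rose, while with the block 4 rose and 1 fell, beside 6.77% and 7.25% of all genes. The summed levels overlapped, although within each replicate number the sum was higher in SAR.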

How the data were processed

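The authors deposited, for each of the 6 libraries, estimated counts per gene and TPM from Salmon (version not given in the sources used here) on GRCz11 with Ensembl gene models, after bcl2fastq 2.16.10 and cutadapt. The cDNA came from polyA RNA with SMART-Seq v4 and the libraries from Nextera XT, which do not mark strand. Deposited lengths served only as offsets in an alternative.

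The estimated counts were rounded and tested with edgeR 4.0.16 (R 4.3.3): filterByExpr (minimum count 10, minimum total 15), TMM scaling, quasi-likelihood F-test of SAR against ROH, and Benjamini-Hochberg adjustment over all 21969 genes tested, with a call at adjusted p below 0.05. The SE is the log2 fold change divided by the square root of F. Levels are given in TPM. P-values measure the spread between these libraries. Alternatives were DESeq2 1.42.0, limma 3.58.1 on log2(TPM + 1) or log2(TPM + 0.1), other scalings and filters, thinned counts, a replicate block and each library left out. The fits with 1 library left out had no block and kept the same-numbered library of the other fraction, so differences between replicates can enter them. Same-numbered libraries were taken as pairs because the methods describe pools of hearts each sorted into both fractions and the labels number both fractions alike. Their deviations from the fraction means correlated at 0.0985, 0.273 and 0.124. The rule fixed earlier asked for a correlation above 0.1 in every pair and was missed by replicate 1, so the use of the block departs from it. The fit without the block stayed the main one. The study states no covariate for its DESeq2 comparison and does not give the design. The scripts were tested on simulated data.

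All 48 symbols came from a gene name table, with zebrafish spelling from the study's tables or RefSeq (GRCz12tu, names and neighbours only). The 8 genes whose symbol 2 IDs share (HOXB5, HOXA11, HOXC12, HOXC13) keep capitals and an ID. The gene hoxa4a was not analysed here. Values per library are given for members past the test, the 5 with the highest mean TPM in either fraction, the 5 with the largest absolute log2 fold change and all of group 13; other values were picked after they were seen. Members and gene lists were chosen with earlier results of these data known.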

Additional observations from a re-analysis of the deposited data

How the results depend on the processing

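The 6 called Hox genes kept their direction in all 17 alternatives that tested them, but the number called moved. Called higher (1 in the report) were 2 genes with DESeq2, 2 with counts thinned to the smallest library, 3 at an adjusted p below 0.1, 0 with a further log2 fold change of at least 1.5 (2.84% of all genes pass that rule), and 0 to 2 with each library left out. Called lower (5 in the report) were 8 with DESeq2, 8 with library totals in place of TMM, 8 at an adjusted p below 0.1, 1 with limma on log2(TPM + 1), 1 with limma on log2(TPM + 0.1), and 1 to 4 with each library left out. Both of these limma fits lost hoxc3a, hoxc6a, hoxb8a and hoxa13a. A further limma fit on log2(TPM + 1), limited to a mean TPM of at least 1, called 5 lower. It lost hoxb8a and hoxa13a, kept hoxc3a and hoxc6a, and gained hoxb6a and hoxc9a. The gene hoxa13a was called in 5 of the 9 alternatives of all libraries that tested it. The share of all genes called in either direction moved too. It was 10.3% in the main fit, 13.9% with DESeq2, 11.1% with library totals and 14.6% with thinned counts. With limma it was 4.25% on log2(TPM + 1), 3.78% on log2(TPM + 0.1) and 8.58% with the limit on mean TPM. The share at an adjusted p below 0.1 was not computed. Over all genes the count of 2269 moved to between 960 and 2459 in the fits without 1 library. The cause of these moves was not tested.

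Library totals moved the median of all genes from 0.03 to -0.077 on the log2 scale. The log2 fold change of hoxa3a turned to 0.00 in limma at log2(TPM + 1), 0.00 at log2(TPM + 0.1) and 0.00 with a mean TPM of at least 1, to 0.05 with thinned counts, and ranged from -0.28 to 0.22 with each library left out. That of hoxa13b ranged from -1.90 to 0.07 and that of HOXC13 (ENSDARG00000070353) from -1.03 to 0.44. The log2 ratio of the posterior sums stayed between -1.50 and -1.08 with each library left out.

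With the replicate number as a block, 4 Hox genes were called higher and 7 lower, beside 6.77% and 7.25% of all genes. The block changed no Hox call other than the 5 given in the report. In ROH replicate 1, 27 Hox genes exceeded 3 counts, which limits what can be read for the genes of groups 9 to 13.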
